A study of Saccharomyces cerevisiae with 12 samples.

Results

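The comparison asked whether the response of budding yeast to loss of GCR1 differed between growth on raffinose and growth on glucose. It compared 8 of the 12 arrays of the series, 4 labelled as a gcr1 null mutant in 3% raffinose and 4 labelled as the same mutant in 2% glucose. The other 4, in 3% galactose, entered the fit behind the SEs and p-values but not the difference. All 5636 genes with a named probe were members of the comparison. Each dual-colour array set total RNA of the labelled mutant against RNA of yeast grown in the same sugar, and each value is the log2 of their ratio for 1 gene, called the gcr1 effect below. The difference given for a gene is its mean log2 ratio in raffinose minus that in glucose, with arrays paired by replicate number. The labels name neither the strain background, nor the genotype of the second yeast, nor the way the null allele was made. The sugars were supplied at different concentrations, so kind and amount of sugar cannot be told apart. The arrays used RNA of whole cultures, so fewer cells that express a gene and less RNA per cell cannot be told apart either.

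Gcr1 is a transcriptional activator that acts with Rap1 and Gcr2 at the promoters of genes for glycolytic enzymes, and mutants that lack it are known to grow poorly on glucose. Glucose is taken up and fermented directly, and it represses genes for respiration, gluconeogenesis and the use of other carbon sources through the repressor Mig1, which the Snf1 kinase counters. Raffinose is a trisaccharide that secreted invertase must first cleave, so it feeds glycolysis slowly and represses these genes weakly.

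The direction of the ratio is likely but not settled. A positive log2 ratio was taken as more RNA in the labelled mutant because textbook targets of Gcr1, such as GPM1, ENO1 and ENO2, were far below 0 on all 8 arrays. GCR1 itself (YPL075W) went the other way. It stood at 2.04, 1.90, 1.36 and 1.38 on the raffinose arrays of the mutant labelled as null, against 0.48, 0.49, 0.43 and 0.21 on the glucose arrays. All 8 values were above 0 and the sugars did not overlap, as for 38.1% of all genes. The difference was 1.27 ± 0.12 (SE, limma adjusted p = 2.99e-06). Whether the GCR1 probes fall inside the deletion is unknown here, so they do not check the labels. If the ratio ran the other way, every sign below would turn.

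The 4 arrays of a sugar were not alike. Across genes, raffinose replicates 1 and 2 correlated at r = 0.963 and replicates 3 and 4 at 0.952, but between these pairs r was 0.255 to 0.482; in glucose the values were 0.957, 0.981 and 0.801 to 0.855. Over all probes, unnamed ones included, the raffinose pairs correlated at -0.507 to -0.34, and 114 unnamed spots of extreme ratio had a median of -8.82 on raffinose replicates 1 and 2 against 8.19 on replicates 3 and 4. The series included dye-swapped repeats, so the numbers 1 and 2 were treated as 1 dye orientation and 3 and 4 as the opposite one. No array is labelled as swapped, so orientation below means this assumed split of the replicate numbers. Subtracting same-numbered arrays left 4 differences per gene. These correlated at 0.936 and 0.918 within an orientation but at 0.712 to 0.859 between orientations, so part of the split remained. Since some arrays repeat a culture and the labels do not say which, a sugar has fewer cultures than arrays, and the p-values below may understate the error.

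With arrays paired by number, a majority of genes passed the threshold for a different gcr1 effect in the 2 sugars. Of 5636 genes, 3492 (62.0%) had a difference at an adjusted p under 0.05 (limma, Benjamini-Hochberg over all genes; called below), 2030 (36.0%) with a higher ratio in raffinose and 1462 (25.9%) with a lower one. With each array centred on its median the split was 1798 higher and 1946 lower, because centring moved the median difference of all genes by 0.136, to -0.064 against 0.073. Without the pairing by number 2117 genes were called, all of them among the 3492, and with same-orientation arrays averaged 2632 were. Both counts are a minority of the genes, so the majority depends on the processing. Differences past 1 in size were called in 508 genes (9.01%) in each direction. Past 2 in size the directions were unequal, with 16 genes higher in raffinose and 89 lower.

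The effect was more often larger in glucose. Among called genes, 957 had effects of the same sign that were called in both sugars and larger in size in glucose, while 157 were larger in raffinose. Another 1219 were called in glucose and not in raffinose, 749 of them below 0 in glucose and 470 above it, and 495 were called in raffinose and not in glucose. In 607 genes (10.8% of all tested) the effects were called with opposite signs, 396 above 0 in raffinose and below 0 in glucose and 211 the other way round. This last count fell to 240 without the pairing and 307 with same-orientation arrays averaged. Across genes the mean effects in raffinose and in glucose correlated at r = 0.59 (5636 genes, which are not independent and share probes and dye orientation).

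**Figure D1:**
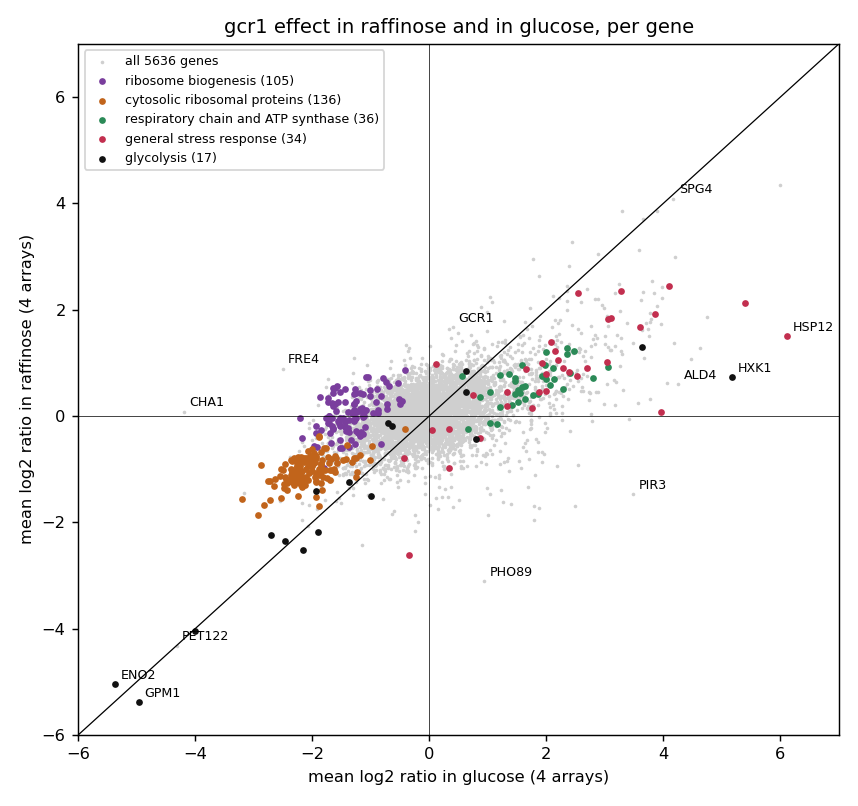
Mean log2 ratio of each gene in raffinose (vertical axis, 4 arrays) against glucose (horizontal axis, 4 arrays), with 5 gene lists coloured and the line of equal effects drawn. Glycolysis genes such as GPM1 and ENO2 lie near the line, ribosome biogenesis genes above it, and respiratory chain and stress genes below it.

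Among genes with the lowest differences were a cell wall protein, a stress protein and a hexokinase whose ratios were high in glucose. PIR3 (YKL163W), which encodes a cell wall protein with internal repeats, had log2 ratios of -1.28, -1.02, -2.01 and -1.57 in raffinose, against 3.70, 3.56, 3.39 and 3.30 in glucose. All raffinose arrays lay below 0 and all glucose arrays above it, and the difference of -4.96 ± 0.14 (adjusted p = 6.76e-10) is a 31.1-fold change of the ratio. HSP12 (YFL014W), a small stress protein of membranes, stood at 2.13, 1.49, 1.33 and 1.05 in raffinose, against 6.49, 6.24, 5.55 and 6.22 in glucose. It was above 0 on every array but far more so in glucose, with a difference of -4.62 ± 0.16 (adjusted p = 3.83e-09). The polyamine exporter gene TPO2 (YGR138C) had a difference of -4.19 ± 0.24 and the sodium-dependent phosphate transporter gene PHO89 (YBR296C) one of -4.05 ± 0.14. Both were below 0 on all raffinose arrays and above 0 on all glucose arrays. The others of the 12 lowest were TMA10 (-3.87 ± 0.23), the maltase genes MAL12 and MAL32, ALD4 for a mitochondrial aldehyde dehydrogenase (-3.65 ± 0.15), ATG41 for an autophagy protein (-3.48 ± 0.18), the peptide importer gene PTR2 (-3.47 ± 0.13), CYB2 for an L-lactate dehydrogenase (-3.47 ± 0.20) and HXK1.

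A difference called with 1 sign in all 4 number pairs and an unadjusted p under 0.05 however arrays were averaged in pairs was found in 2967 genes (52.6%), and from these the extremes were taken. The highest difference belonged to CHA1 (YCL064C), which encodes a serine and threonine deaminase of amino acid catabolism. Its log2 ratios were 0.55, 0.24, -0.15 and -0.31 in raffinose, against -4.20, -4.24, -4.14 and -4.20 in glucose. It was close to 0 in raffinose and the glucose arrays agreed within 0.04 (SD), giving a difference of 4.28 ± 0.15 (adjusted p = 4.32e-09). The ferric reductase gene FRE4 (YNR060W) followed at 3.39 ± 0.33, with 0.89 ± 0.71 in raffinose and -2.51 ± 0.27 in glucose (SD, n = 4 each). Of the other 10 highest, 3 act in mating: FAR1, SST2 and MFA1. Another 6 act in ribosome assembly (RRP15, CIC1, NOP4, UTP9, RPF2 and ESF1), and SAS3 encodes a histone acetyltransferase (2.10 ± 0.17).

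**Figure D2:**
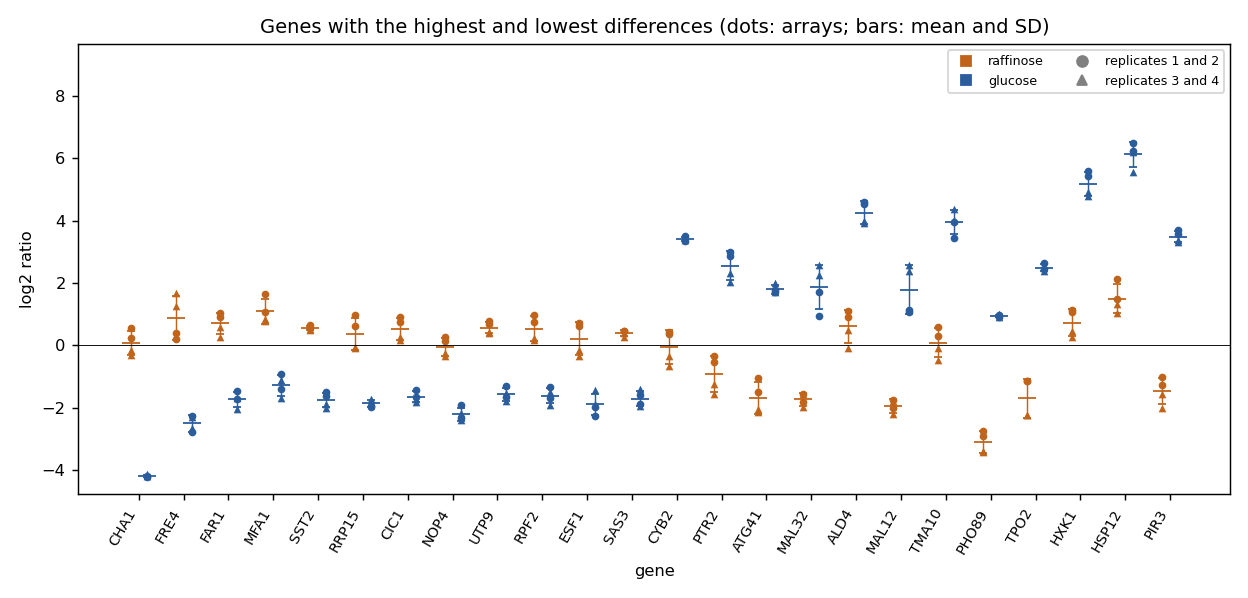
Log2 ratio (vertical axis) on each raffinose and glucose array for the 12 genes with the highest and the 12 with the lowest differences, with mean and SD over 4 arrays per sugar. The sugars do not overlap for any of the 24 genes, which were chosen for their large differences on these arrays. Of all genes 38.1% do not overlap. CHA1 is near 0 in raffinose and near -4.2 in glucose, and HXK1 between 0.25 and 1.14 in raffinose and between 4.78 and 5.60 in glucose.

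Read by list, genes for making ribosomes had higher ratios in raffinose, and genes for respiration, storage carbohydrates and stress had lower ones, while glycolysis lay near the middle. Medians of the 39 lists ran from -1.27 for general stress response to 1.37 for ribosome biogenesis, beside 0.073 for all genes. For the counts below, 36.0% of all genes were called higher in raffinose and 25.9% lower.

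**Figure D3:**
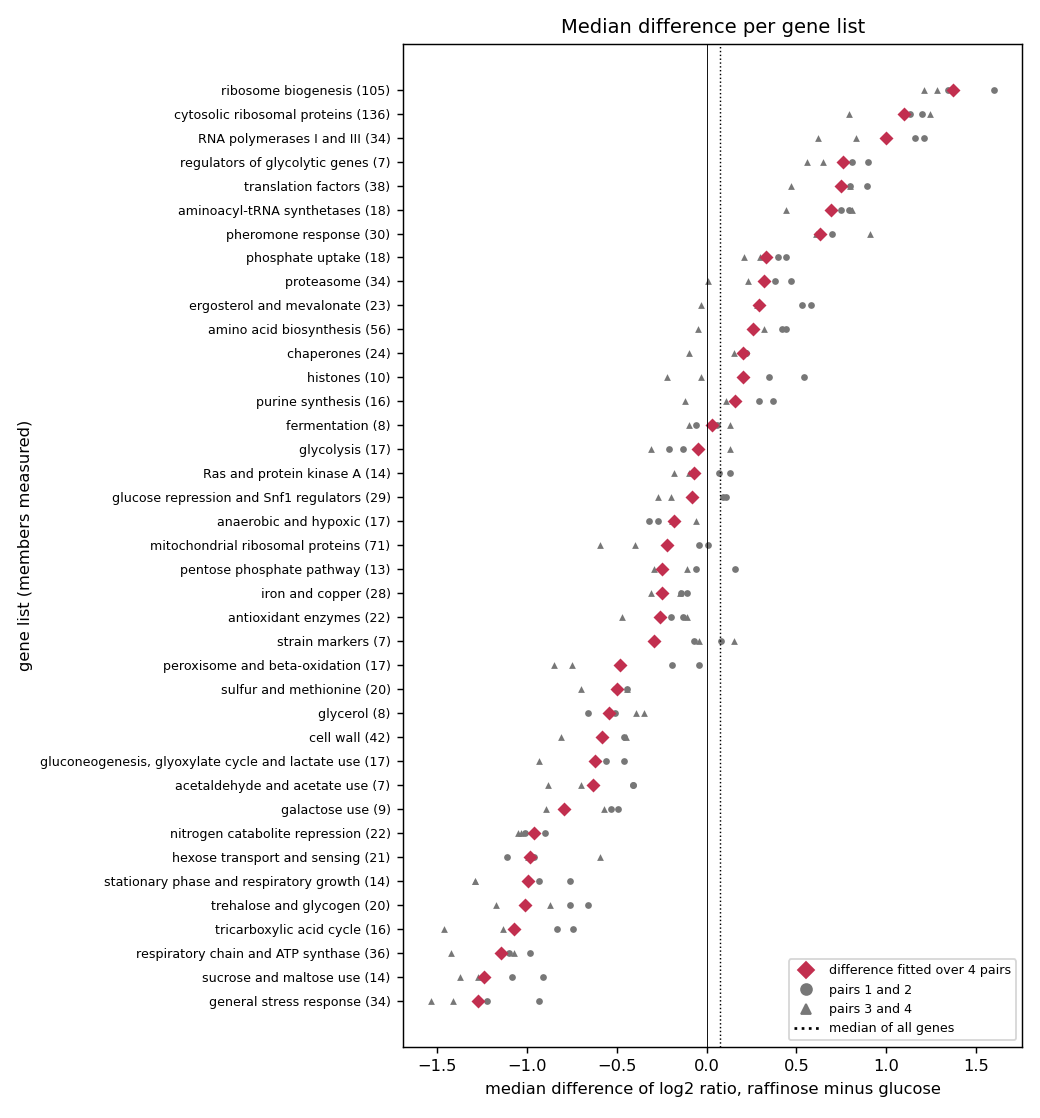
Median difference of the log2 ratio, raffinose minus glucose, for each gene list, with the fitted value (diamond) and the medians of the number pairs 1 and 2 (circles) and 3 and 4 (triangles). Ribosome biogenesis is highest at 1.37 and general stress response lowest at -1.27; the dotted line marks the median of all genes.

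The lowest ratios in glycolysis, those of GPM1, ENO1 and ENO2, differed by less than 0.5 between the sugars. GPM1 (YKL152C), the phosphoglycerate mutase gene, stood at -4.67, -4.60, -6.13 and -6.17 in raffinose, against -3.88, -4.07, -5.80 and -6.11 in glucose. The sugars overlapped, and replicates 3 and 4 were lower than replicates 1 and 2 in both. Its difference of -0.43 ± 0.13 (adjusted p = 0.0133) was small beside the effect itself and was not called without the pairing (adjusted p = 0.618). ENO1 (YGR254W), an enolase gene, was at -4.05 ± 0.54 in raffinose and -4.0 ± 0.55 in glucose, and its difference had a 95% interval of -0.42 to 0.31. For the other enolase gene, ENO2, the interval was -0.01 to 0.65, for the pyruvate kinase gene CDC19 -0.30 to 0.51 and for the glyceraldehyde-3-phosphate dehydrogenase gene TDH2 -0.09 to 0.35. ENO1 and ENO2, like TDH1, TDH2 and TDH3, are close in sequence, and their probes may not separate them.

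Of the 17 glycolysis genes, 4 had a higher ratio in raffinose, 7 a lower one and 6 were not called, so that the called share (64.7%) was near the 62.0% of all genes. The 4 higher ones were PFK1, PFK2, FBA1 and TPI1, at 0.44 to 0.57, and 4 of the lower ones were PGI1, TDH3, GPM1 and PGK1, at -0.51 to -0.27. None of these 8 was called without the pairing, and with arrays centred FBA1 and TPI1 lost the call (adjusted p = 0.0714 and 0.0591). PGK1, at adjusted p = 0.0497, lost it when any of several single arrays was left out, and GPM1 lost it without raffinose replicate 1 or 2 (adjusted p = 0.0523 and 0.0547).

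The 3 glycolysis genes that differed by more than 1 encode enzymes at the ends of the pathway. HXK1 (YFR053C), a hexokinase gene that glucose represses in normal cells, had log2 ratios of 1.14, 1.07, 0.25 and 0.46 in raffinose, against 5.42, 5.60, 4.91 and 4.78 in glucose. GLK1 (YCL040W), the glucokinase gene, had 1.70, 1.90, 0.55 and 1.01 in raffinose, against 4.02, 4.0, 3.32 and 3.22 in glucose. Both were above 0 on every array and the sugars did not overlap, as for 38.1% of all genes. Their differences were -4.45 ± 0.11 (adjusted p = 5.81e-10) and -2.35 ± 0.14 (adjusted p = 1.43e-07). HXK2, the main hexokinase gene of glucose-grown cells, had a difference of -0.17 with an interval of -0.40 to 0.06. PYK2, a second pyruvate kinase gene, was at -0.43 ± 0.49 in raffinose and 0.79 ± 0.27 in glucose, a difference of -1.22 ± 0.16 (adjusted p = 5.47e-05).

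**Figure D4:**
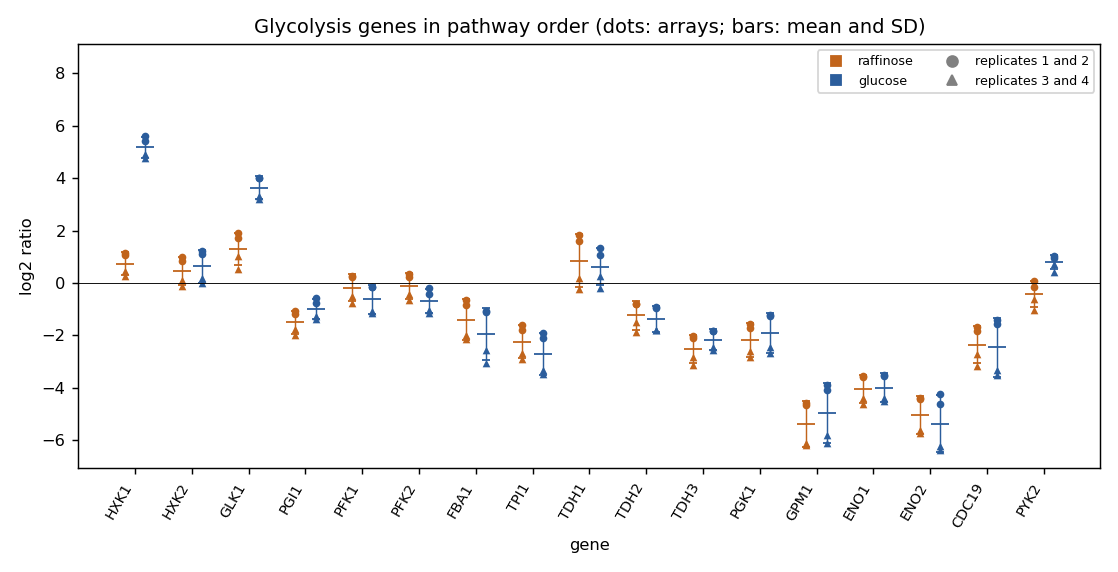
Log2 ratio (vertical axis) on each raffinose and glucose array for the 17 glycolysis genes, in pathway order, with mean and SD over 4 arrays per sugar. The sugars are apart for HXK1, GLK1 and PYK2 and overlap for the others; GPM1, ENO1 and ENO2 lie below -3 on all arrays.

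The partners of Gcr1 had higher ratios in raffinose. GCR2, the coactivator gene, was at 0.48 ± 0.32 in raffinose and -0.59 ± 0.06 in glucose, a difference of 1.07 ± 0.14 (adjusted p = 3.47e-05). RAP1 and REB1, general DNA-binding regulators, had differences of 0.83 ± 0.12 and 0.76 ± 0.11. ABF1, another such regulator, had 0.54 ± 0.12 and PDC2, a regulator of pyruvate decarboxylase genes, 0.37 ± 0.14; neither was called without the pairing (adjusted p = 0.165 and 0.243). TYE7, an activator of glycolytic genes, stood at 1.77 ± 0.47 in raffinose and 1.63 ± 0.22 in glucose, and its difference had an interval of -0.24 to 0.53.

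Genes for hexose uptake mostly had lower ratios in raffinose. Of 21 genes for hexose transport and sensing 18 were lower and 2 higher, against 25.9% and 36.0% of all genes, and their median was -0.27 in raffinose and 0.68 in glucose. HXT4, a transporter gene of intermediate affinity, had log2 ratios of -0.67, -0.61, -1.34 and -0.84 in raffinose, against 1.94, 1.75, 2.07 and 1.96 in glucose. HXT1, the low-affinity transporter gene, had -0.59, -0.50, -1.48 and -1.09 in raffinose, against 1.59, 1.48, 0.92 and 0.85 in glucose. Both crossed 0 between the sugars, with differences of -2.80 ± 0.17 and -2.12 ± 0.14. HXT3, another low-affinity transporter gene, went against the rest at 1.52 ± 0.34 in raffinose and 0.72 ± 0.35 in glucose, a difference of 0.79 ± 0.11 (adjusted p = 8.55e-05).

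The high-affinity transporter genes HXT2, HXT6 and HXT7 had differences of -1.17, -0.92 and -1.0. HXT6 and HXT7 are nearly identical in sequence and their probes may not separate them. HXT6 differed by -0.3 and -0.36 in number pairs 1 and 2 but by -1.62 and -1.39 in pairs 3 and 4. For HXT7 these values were -0.43 and -0.54 against -1.69 and -1.34. The glucose sensor gene SNF3 was lower in raffinose (-0.69 ± 0.12), whereas the other sensor gene, RGT2, had an interval of -0.17 to 0.30. Of the genes that act with the repressor Rgt1, MTH1 was lower (-1.08 ± 0.25) and STD1 higher (0.56 ± 0.12). MTH1 differed by -0.45 and -0.69 in number pairs 1 and 2 but by -1.43 and -1.74 in pairs 3 and 4. RGT1 itself stood at -0.30 and lost its call under several alternatives. HXT8, HXT10, HXT11 and HXT13 to HXT17 split between replicates 1 and 2 and replicates 3 and 4. Their SDs among raffinose arrays were up to 2.26. Of these 8, HXT10 kept its call without the pairing. HXT17 differed by -2.11 and -1.86 in number pairs 1 and 2 but by 0.28 and 0.11 in pairs 3 and 4. Without the pairing 10 of the 18 lower calls remained.

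**Figure D5:**
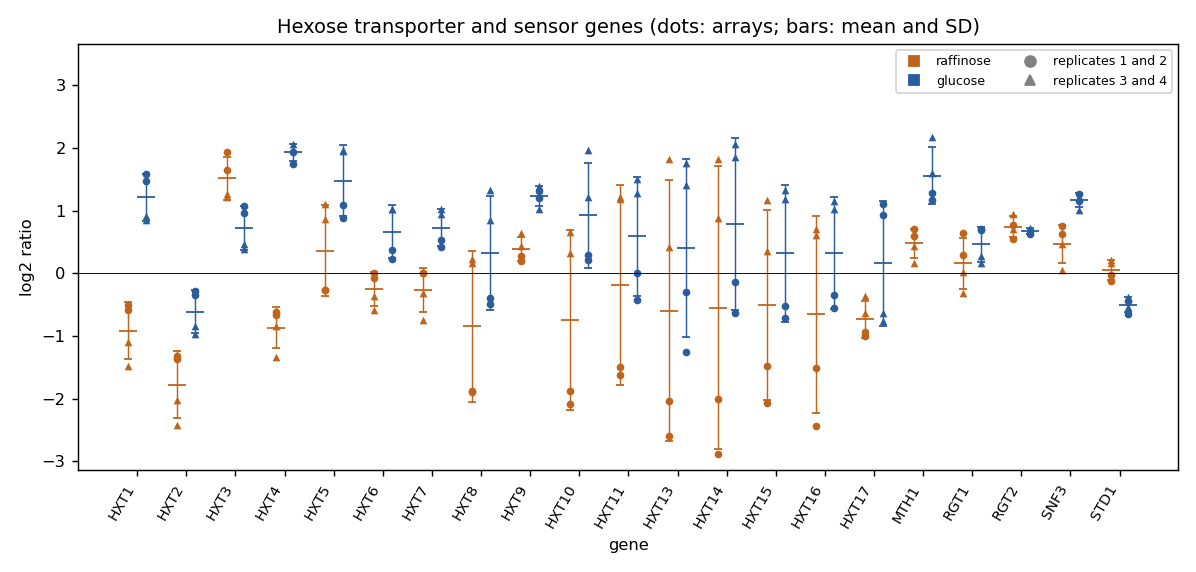
Log2 ratio (vertical axis) on each raffinose and glucose array for 21 hexose transporter and sensor genes, with mean and SD over 4 arrays per sugar. HXT1 and HXT4 lie below 0 in raffinose and above 0 in glucose, HXT3 is higher in raffinose, and HXT13 and HXT14 split by dye orientation (circles against triangles) in both sugars.

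Genes for sucrose and maltose use also had lower ratios in raffinose. Of 14 sucrose and maltose genes 12 were lower and 0 higher, beside 25.9% and 36.0% of all genes. All 14 were called above 0 in glucose, while 7 were above and 4 below 0 in raffinose. Of all genes 35.1% were called above 0 in glucose, and 34.8% above and 25.7% below 0 in raffinose. SUC2 (YIL162W), the invertase gene whose product cleaves raffinose, had log2 ratios of -1.19, -1.14, -2.17 and -1.86 in raffinose, against 0.78, 0.75, 0.30 and 0.17 in glucose. It was below 0 on every raffinose array and above 0 on every glucose array (difference -2.09 ± 0.13, adjusted p = 1.99e-07). The maltase genes MAL12 and MAL32, which are nearly identical, were at -1.95 ± 0.21 and -1.74 ± 0.20 in raffinose, against 1.79 ± 0.80 and 1.87 ± 0.72 in glucose. The isomaltase genes IMA1 to IMA5 had differences of -1.62 to -0.90; they too are a close family. Of MAL13, MAL31, MAL11 and MAL33, whose products regulate or import maltose, all were lower, at -1.50 to -0.41, and MAL13 lost its call without the pairing (adjusted p = 0.38). MPH2 and MPH3, maltose permease genes, had intervals of -0.42 to 0.25 and -0.50 to 0.32. Of 9 galactose genes 3 were lower, the inducer gene GAL3 (-1.25 ± 0.26), the activator gene GAL4 (-1.10 ± 0.15) and the phosphoglucomutase gene PGM2 (-0.79 ± 0.15), and 6 were not called; the called share of 33.3% was below the 62.0% of all genes.

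Of 29 regulators of glucose repression 8 were higher and 11 lower, so that 65.5% were called, close to the 62.0% of all genes. CAT8 (YMR280C), the activator gene of gluconeogenesis, had log2 ratios of -0.66, -0.50, -1.22 and -0.84 in raffinose, against 1.43, 1.54, 1.70 and 2.13 in glucose, and changed sign between the sugars (difference -2.51 ± 0.18, adjusted p = 7.34e-07). USV1, a regulator gene of growth without glucose, had -2.22 ± 0.19, ADR1, the activator gene of ethanol use, -1.52 ± 0.15, and REG2, a regulatory subunit gene of the Glc7 phosphatase, -1.32 ± 0.21. In the Ras and protein kinase A pathway 5 of 14 genes were higher and 4 lower, a called share of 64.3% that is also near that of all genes. RAS1 was higher (1.55 ± 0.16), as was TPK3, a catalytic subunit gene of the kinase (1.33 ± 0.14), while PDE1, which encodes a cyclic AMP phosphodiesterase, was lower (-1.70 ± 0.17).

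Genes for gluconeogenesis and lactate use mostly had higher ratios in glucose. Of 17 genes of gluconeogenesis, the glyoxylate cycle and lactate use 12 were lower in raffinose and 3 higher. In glucose 16 were called above 0, beside 35.1% of all genes. PCK1 (YKR097W), for phosphoenolpyruvate carboxykinase, had log2 ratios of -1.70, -1.95, -1.79 and -2.0 in raffinose, against 0.30, 1.14, 1.41 and 1.17 in glucose. FBP1 (YLR377C), for fructose-1,6-bisphosphatase, had -0.67, -0.77, -1.30 and -1.14 in raffinose, against 1.42, 1.44, 1.88 and 1.54 in glucose. Both were below 0 in raffinose and above 0 in glucose on every array, with differences of -2.87 ± 0.18 and -2.54 ± 0.16, and the D-lactate dehydrogenase gene DLD1 had -2.92 ± 0.11. The 3 genes that went the other way, named after their values were seen, were the acetate transporter gene ADY2 (1.31 ± 0.19), the cytosolic malate dehydrogenase gene MDH2 (1.07 ± 0.11) and the carnitine acetyltransferase gene CAT2 (0.44 ± 0.16). CAT2 differed by 0.18 and 0.04 in pairs 3 and 4 and was not called without the pairing (adjusted p = 0.0575).

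In fermentation and acetate metabolism the isoenzymes differed. ADH2, the glucose-repressed alcohol dehydrogenase gene that serves ethanol use, stood at 0.78, 0.49, -0.21 and -0.13 in raffinose, against 2.97, 2.77, 3.27 and 2.92 in glucose (difference -2.75 ± 0.19, adjusted p = 4.71e-07). ALD6, the main cytosolic acetaldehyde dehydrogenase gene, was at -0.06, 0.06, -1.15 and -0.79 in raffinose, against -1.54, -1.56, -2.81 and -2.83 in glucose, so that its difference was positive (1.70 ± 0.11, adjusted p = 3.35e-07). The mitochondrial counterpart ALD4 had 0.60 ± 0.53 in raffinose and 4.26 ± 0.36 in glucose, and the stress-induced ALD3 had a difference of -1.32 ± 0.18. The pyruvate decarboxylase gene PDC1 was higher in raffinose (0.84 ± 0.21) and PDC6 lower (-1.09 ± 0.21), and neither was called without the pairing (adjusted p = 0.263 and 0.0844).

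Genes for respiration had median ratios above 0 in both sugars and higher ones in glucose. Of 36 respiratory chain and ATP synthase genes 35 were lower in raffinose and 0 higher, 26 of them by more than 1. Their median was 0.62 in raffinose and 1.61 in glucose, and the 4 number pairs gave median differences of -0.98, -1.10, -1.42 and -1.07. CYC7, the gene for a form of cytochrome c, had log2 ratios of 1.36, 1.24, 0.40 and 0.71 in raffinose, against 3.21, 2.81, 3.00 and 3.17 in glucose. The sugars did not overlap, as for 38.1% of all genes, and the difference was -2.12 ± 0.17. COX5B, a cytochrome c oxidase subunit gene, and CYC1, for the main cytochrome c, had differences of -2.07 ± 0.15 and -1.79 ± 0.15. Genes of the tricarboxylic acid cycle were lower in 14 of 16 cases and higher in 0, with a median of -1.07. CIT1, the mitochondrial citrate synthase gene, stood at 1.82 ± 0.60 in raffinose and 3.79 ± 0.45 in glucose. The subunit genes LSC2 of succinyl-CoA ligase and SDH1 of succinate dehydrogenase were near 0 in raffinose, at -0.30 ± 0.52 and 0.01 ± 0.50, and near 2 in glucose (1.97 ± 0.25 and 2.07 ± 0.41).

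Of 17 peroxisome and beta-oxidation genes 9 were lower and 2 higher, a called share of 64.7% near the 62.0% of all genes. The list's median differed between number pairs, at -0.04 and -0.19 in pairs 1 and 2 against -0.85 and -0.75 in pairs 3 and 4. SPS19 and POT1, for enzymes of beta-oxidation, each had a difference of -3.45, from 0.62 ± 0.60 and 0.32 ± 0.36 in raffinose and 4.07 ± 0.24 and 3.77 ± 0.19 in glucose. Their number pairs all lay between -4.18 and -2.89. The 2 higher genes, named after their values were seen, were ANT1 (0.72 ± 0.12) and PXA1 (0.52 ± 0.18), both for peroxisomal transporters. PXA1 differed by 0.19 and 0.0 in pairs 3 and 4 and was not called without the pairing (adjusted p = 0.0575).

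General stress genes had the lowest median difference of the 39 lists. Of 34 general stress genes 31 were lower in raffinose, 22 of them by more than 1, and 1 was higher, DDR48 (0.87 ± 0.11, named after its value was seen), which was not called without the pairing (adjusted p = 0.0832). Their median was 0.89 in raffinose and 2.11 in glucose. YRO2 (YBR054W), a plasma membrane protein gene, had log2 ratios of 2.46, 2.26, 1.85 and 1.97 in raffinose, against 5.62, 5.47, 5.25 and 5.28 in glucose (difference -3.27 ± 0.11, adjusted p = 4.32e-09). HSP30, a regulator gene of the plasma membrane proton pump, was lower in raffinose with both means below 0, at -2.62 ± 0.52 in raffinose and -0.34 ± 0.35 in glucose. Of 14 stationary phase and respiratory growth genes 10 were lower and 0 higher (71.4% called, beside 62.0% of all genes). RGI1 differed by -3.41 ± 0.14 and SNZ1, of vitamin B6 synthesis, by -3.35 ± 0.16.

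Of 20 trehalose and glycogen genes 16 were lower, with a median of 0.52 in raffinose and 1.60 in glucose. GPH1 (YPR160W), for glycogen phosphorylase, had 0.67, 0.54, -0.29 and -0.15 in raffinose, against 3.35, 3.15, 3.25 and 2.96 in glucose. It was near 0 in raffinose and about 3 in glucose (difference -2.98 ± 0.15, adjusted p = 5.05e-08). Genes of glycogen synthesis and breakdown moved together, with the branching enzyme gene GLC3 at -2.33 ± 0.21, the synthase gene GSY1 at -2.32 ± 0.21 and the debranching enzyme gene GDB1 at -2.27 ± 0.12. The 1 higher gene, PGM1 (0.29 ± 0.10), was named after its value was seen and was not called with arrays centred or without the pairing (adjusted p = 0.0807 and 0.388). Chaperone genes were split, 11 higher and 8 lower of 24 (8 and 9 with arrays centred). The Hsp90 pair moved apart, with the stress-induced HSP82 at -1.43 ± 0.13 and the constitutive HSC82 at 1.20 ± 0.10, although the genes are close in sequence. Without the pairing 1 chaperone gene stayed higher and 5 lower.

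Genes for making ribosomes had ratios below 0 in glucose and near 0 in raffinose. Of 105 ribosome biogenesis genes 104 were higher in raffinose and 0 lower, 85 of them by more than 1, against 9.01% of all genes. All 105 were called below 0 in glucose (39.9% of all genes were). In raffinose 31 were called above 0 and 24 below it (34.8% and 25.7% of all genes). Their median was 0.05 in raffinose and -1.32 in glucose, and the 4 number pairs gave 1.60, 1.34, 1.21 and 1.28. NOP4 (YPL043W), for a nucleolar protein of the large subunit, had log2 ratios of 0.25, 0.15, -0.34 and -0.24 in raffinose, against -2.34, -1.93, -2.39 and -2.18 in glucose. RRP15 (YPR143W), also of the large subunit, had 0.97, 0.62, -0.06 and -0.09 in raffinose, against -1.95, -1.97, -1.81 and -1.73 in glucose. The sugars stood apart by more than 1 for both, with differences of 2.16 ± 0.13 and 2.23 ± 0.20. UTP9, of the small subunit processome, had 2.15 ± 0.13 and CIC1 2.18 ± 0.12.

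The polymerases that make ribosomal and transfer RNA followed the same order. Of 34 genes for RNA polymerases I and III and their factors 28 were higher in raffinose and 0 lower, with a median of 1.0, and the polymerase I subunit genes RPA34, RPA43 and RPA190 had 1.66 ± 0.14, 1.51 ± 0.12 and 1.44 ± 0.10.

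Cytosolic ribosomal protein genes were below 0 in both sugars. Of 136, 135 were called below 0 in raffinose and 136 in glucose, beside 25.7% and 39.9% of all genes. In the difference 128 had a higher ratio in raffinose (116 with arrays centred, 84 without the pairing) and 0 a lower one. Their median was -1.02 in raffinose and -2.10 in glucose. RPL20A had log2 ratios of -0.30, -0.55, -1.40 and -1.44 in raffinose, against -2.98, -3.05, -2.60 and -2.84 in glucose, a difference of 1.95 ± 0.22 (adjusted p = 1.28e-05). It was lower than 0 on all 8 arrays. Many ribosomal protein genes are near-identical pairs whose probes may not separate them.

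Translation factors and aminoacyl-tRNA synthetases were higher in raffinose in 35 of 38 and 18 of 18 cases, with medians of 0.75 and 0.69, and without the pairing in 17 and 8. The initiation factor gene NIP1 (1.52 ± 0.13) and the leucyl-tRNA synthetase gene CDC60 (1.34 ± 0.12) led them. Mitochondrial ribosomal protein genes did not follow. Of 71, 27 were lower, 2 higher and 42 not called, a called share of 40.8% that is below the 62.0% of all genes. The list's median difference was 0.01 and -0.04 in number pairs 1 and 2 but -0.59 and -0.40 in pairs 3 and 4. Centring raised the count of lower genes to 46, and leaving out the pairing brought it to 6.

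Mating genes included some of the highest differences. Of 30 pheromone response genes 17 were higher in raffinose, 14 of them by more than 1, and 3 lower. The called share of 66.7% was near the 62.0% of all genes, of which 9.01% were higher by more than 1. SST2 (YLR452C), which encodes a negative regulator of pheromone signalling, had log2 ratios of 0.66, 0.54, 0.50 and 0.51 in raffinose, against -1.62, -1.50, -2.02 and -1.88 in glucose. MFA1 (YDR461W), an a-factor gene, had 1.66, 1.08, 0.84 and 0.77 in raffinose, against -0.92, -1.39, -1.11 and -1.70 in glucose. Both were above 0 in raffinose and below 0 in glucose on every array (differences 2.31 ± 0.11 and 2.37 ± 0.15). FAR1, whose product arrests the cell cycle in response to pheromone, had 2.44 ± 0.15, and the second a-factor gene MFA2 1.94 ± 0.15. The 3 lower genes, named after their values were seen, were PRM5 (-1.91 ± 0.11), PRM1 (-0.68 ± 0.17) and PRM10 (-0.49 ± 0.13).

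Of 22 genes under nitrogen catabolite repression 18 were lower and 1 higher, with a median of 0.17 in raffinose and 0.95 in glucose. The allantoin permease gene DAL4 stood at -1.74, -1.90, -0.72 and -1.0 in raffinose, against 1.36, 1.54, 1.86 and 2.0 in glucose (difference -3.03 ± 0.15). The general amino acid permease gene GAP1 had -2.26 ± 0.14. The higher one, the activator gene GLN3 (0.25 ± 0.09, named after its value was seen), was not past the 0.05 threshold without the pairing or with arrays centred. Of 20 sulfur and methionine genes 14 were lower and 2 higher. STR3, for cystathionine beta-lyase, was at 1.38 ± 0.17 in raffinose and 4.18 ± 0.47 in glucose, and MET2, of homoserine acetylation, at -0.45 ± 0.31 in raffinose and 1.67 ± 0.34 in glucose. Amino acid biosynthesis was mixed, 27 higher and 10 lower of 56 (7 and 5 without the pairing). Its called share of 66.1% was near the 62.0% of all genes. ILV5 of branched-chain synthesis had a difference of 1.64 ± 0.12 and the glutamine synthetase gene GLN1 one of -1.40 ± 0.12.

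Among phosphate genes, the transporter genes PHO89 and PHO84 differed in opposite directions. PHO89 had log2 ratios of -2.74, -2.90, -3.43 and -3.38 in raffinose, against 0.91, 0.96, 0.91 and 0.99 in glucose. PHO84, the high-affinity transporter gene, was at 1.10 ± 0.39 in raffinose and -0.13 ± 0.23 in glucose, a difference of 1.23 ± 0.17 (adjusted p = 6.71e-05). Of 18 phosphate genes in all, 9 were higher and 4 lower (72.2% called, beside 62.0% of all genes). Among 28 iron and copper genes 7 were higher and 11 lower (64.3% called, beside 62.0% of all genes), and FRE4 stood apart from the haem oxygenase gene HMX1 (-1.80 ± 0.12). Of 42 cell wall genes 26 were lower (15 without the pairing) and 1 higher, DSE1 (0.83 ± 0.11, named after its value was seen). The called share of 64.3% was near that of all genes, of which 25.9% were lower. Besides PIR3, GSC2, a glucan synthase gene, stood at 0.46, 0.67, -0.24 and 0.13 in raffinose, against 3.67, 3.85, 3.43 and 3.33 in glucose (difference -3.31 ± 0.15).

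A small set of large effects differed by less than 1 between the sugars. By the rule that both means pass 3 in size with 1 sign and the 95% interval of the difference lies within 1 of 0, 9 genes qualified, and the 8 with the largest effects were GPM1, ENO2, ENO1, PET122, SPG4, GCY1, CIT3 and IMD2. PET122 (YER153C), for a translational activator of a mitochondrial messenger RNA, stood at -3.77, -3.73, -4.91 and -4.88 in raffinose, against -3.26, -3.73, -4.96 and -5.31 in glucose, and its interval was -0.35 to 0.33. CIT3 (YPR001W), a mitochondrial citrate synthase gene, stood at 3.82, 3.72, 3.61 and 3.65 in raffinose, against 3.18, 3.47, 4.0 and 4.0 in glucose. The sugars overlapped for both. For CIT3, GCY1 and SPG4 the difference was positive in number pairs 1 and 2 (means 0.45, 0.43 and 0.76) and negative in pairs 3 and 4 (-0.37, -0.48 and -0.93). IMD2, for an inosine monophosphate dehydrogenase, was higher in raffinose by 0.56 ± 0.14 (adjusted p = 0.00372).

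Genes often used as strain markers were also read, but the labels give no marker genotype to set them against. URA3 stood at 2.61, 2.65, 2.51 and 2.78 in raffinose, against 2.0, 1.88, 1.85 and 1.80 in glucose, above 0 on all 8 arrays. LEU2 was at 1.14 ± 0.73 in raffinose and 0.89 ± 0.55 in glucose. HIS3 and TRP1 varied by orientation, with SDs of 1.63 and 1.30 in raffinose, and ADE2 was within 0.5 of 0 in both means. LYS2 and MET17 differed by 1.13 ± 0.12 and -1.02 ± 0.12. Whether marker genes contributed to any difference was not tested.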

How the data were processed

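The authors deposited log2 ratios of the 2 channels, processed by them before deposit, for 10807 probes per array. The base is a reading of the values, and how the ratios were normalized, or turned for dye swaps, is not given in the sources used here. RNA was labelled with a linear amplification kit, and each array carries the same dye in the same channel, per the labels. The median gene of an array lay between -0.188 and 0.296, and arrays were left uncentred. Signal over background is unknown, as brightness was not used here; precision is limited by the number of arrays.

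GEO's annotation of the platform assigns 1 gene to 9271 probes, all matched to the gene table of assembly R64 (names only), and 1536 probes are unnamed here. Probes of a gene were averaged (5636 genes, 2026 with 1 probe); genes needed 3 of 4 arrays per sugar, and 1 gene lacked a value on 1 raffinose array. For genes with 2 probes the difference correlated at r = 0.972 between them. limma 3.58.1 in R 4.3.3 (lmFit, eBayes) was fitted to all 12 arrays, 4 of them from galactose, with a mean per sugar and the replicate number as a block; p-values are two-sided, SEs moderated, and intervals cover 95%. SDs are over the 4 arrays of a sugar. The fit was run on simulated data with independent errors per array, which cannot show its error rate where arrays repeat a culture.

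Same-numbered deviations correlated at 0.627 to 0.763 between raffinose and glucose, above the criterion of 0.1 for pairing. The best match was then the array's own number in 6 of 8 cases. Other numbers of the same orientation correlated at 0.59 to 0.729, so the criterion cannot tell shared number from shared orientation. After removal of orientation the range for same-numbered arrays was -0.088 to 0.153. Lists, members and the rule for named genes were chosen with earlier results of these data known. The rule took GCR1; the 12 highest and 12 lowest differences among called genes with 1 sign in all 4 number pairs and an unadjusted p under 0.05 under all 3 pairwise averagings of arrays; all members of 5 short lists; up to 4 called members of other lists; 8 genes with opposite effects; and 8 with large shared effects. A further 24 genes that went against their list were named after their values were seen. Promoter sequences were not used here. Alternatives were no block, 8 arrays, averaged arrays, centring, complete genes, 1 probe per gene, robust variances, each array left out, and raffinose replicates 3 and 4 turned.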

Additional observations from a re-analysis of the deposited data

Results flagged for a closer look

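The test of the difference between raffinose and glucose marked 3492 genes as differing between the sugars, the comparison described above. The genes with the most different effects of opposite sign were FRE4 (3.39), PIR3 (-4.96), TPO2 (-4.19), PHO89 (-4.05), MAL12 (-3.74), MAL32 (-3.61), ATG41 (-3.48) and PTR2 (-3.47). Of these, FRE4 was above 0 in raffinose and below 0 in glucose, and the other 7 the reverse.

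A single array stood apart from the other 3 of its sugar in 3 groups of values: STR3 in raffinose, where the highest array read 1.63; CTT1, a catalase gene, in glucose, where the highest read 3.71; and ARO7, of aromatic amino acid synthesis, in glucose, where the lowest read -1.20. In each, the gap to the next array took up most of the range of the 4. Chance alone marks about 1 group in 20 where the 4 values are independent, and 472 groups were examined. The arrays here fall into 2 alike pairs, so that rate need not hold. For CTT1 the glucose arrays spanned only 3.55 to 3.71.

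Outside the named genes, 114 unnamed spots had ratios past 5 in size on at least 6 arrays. Their median was -8.82 on raffinose replicates 1 and 2 and 8.19 on replicates 3 and 4, against -6.73 and 7.82 on the glucose arrays. What these spots hold is not given in the sources used here.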

How the results depend on the processing

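The count of genes with a different effect in raffinose and glucose was 3108 to 3502 with single arrays left out. It was 3214 in a fit of the 8 raffinose and glucose arrays alone, where 3197 of the 3492 kept the call. In that fit 10 named genes lost their call, among them PGK1, TDH3 and HXT17 (adjusted p = 0.123, 0.0512 and 0.0725). Without the replicate number as a block, 2117 genes were called (1272 higher and 845 lower), 2071 had an effect in raffinose and 240 had opposite effects. In that fit 54 of the 218 called named genes lost their call. Dropping the block changes the error and not the estimated difference, so their signs could not change. Averaging replicates 1 with 4 and 2 with 3 gave 1203 genes with opposite effects, and averaging 1 with 2 and 3 with 4 gave 307. Of the 3492 called genes, 2631 kept the call in the latter setting, which rests on fewer values and leaves the estimated differences as they were. With raffinose replicates 3 and 4 turned, 3031 genes were called in the difference and 2442 of the 3492 kept call and sign; 1690 were called past 1 in size, 712 had an effect in raffinose and 165 opposite effects. The turned median was 0.51 for the cell wall list (-0.58 as deposited), 0.14 for the anaerobic list (-0.18) and 1.82 for glycolysis (-0.05), since turning cancels what all 4 arrays share. Of 218 called named genes 21 changed sign when turned.

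With each array centred, CDC19 (-0.03), TDH2 (-0.01), RGT2 (-0.07) and CIT3 (-0.10) crossed 0. With 1 probe per gene, PET122 (0.06), SPG4 (0.21) and CIT3 (-0.12) did. None of these was called under either setting. Leaving out single arrays moved uncalled differences across 0 for ENO1 (-0.16 to 0.06), CDC19 (-0.07 to 0.24), TYE7 (-0.08 to 0.31), MPH2 (-0.22 to 0.02), MPH3 (-0.27 to 0.11), HIS3 (-0.62 to 0.06), PET122 (-0.14 to 0.15), SPG4 (-0.51 to 0.31), GCY1 (-0.26 to 0.14) and CIT3 (-0.15 to 0.17).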

Other observations

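In the pentose phosphate pathway 5 of 13 genes were lower in raffinose and 4 higher (69.2% called, beside 62.0% of all genes). The minor forms SOL4 (-2.24 ± 0.15), TKL2 (-1.97 ± 0.20) and NQM1 (-1.86 ± 0.19) were lower, each above 0 in both sugars, and RKI1, for ribose-5-phosphate isomerase, was higher, at -0.57 ± 0.50 in raffinose and -2.14 ± 0.37 in glucose. Of 8 glycerol genes 5 were lower and 1 higher (75.0% called). The glycerol-3-phosphate dehydrogenase gene GUT2, which serves glycerol use, had a difference of -1.71 ± 0.18, and the glycerol phosphatase genes GPP2 and GPP1 had -1.37 ± 0.13 and 0.61 ± 0.12; GPP1 was not called without the replicate block (adjusted p = 0.143). Antioxidant genes were lower in 9 of 22 cases and higher in 3, a called share of 54.5%, below that of all genes. The mitochondrial peroxiredoxin gene PRX1 (-2.03 ± 0.12) and CTT1 (-1.92 ± 0.16) were lower, and the higher genes, named after their values were seen, were AHP1 (0.60 ± 0.13), SOD1 (0.54 ± 0.16) and TSA1 (0.46 ± 0.14). None of these 3 was called without the replicate block (adjusted p = 0.338, 0.28 and 0.397), and SOD1 and TSA1 were not called with arrays centred (0.102 and 0.117).

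In the lists that follow the called share was below the 62.0% of all genes, of which 36.0% were higher and 25.9% lower. Of 23 ergosterol and mevalonate genes 12 were higher and 2 lower (60.9% called, and 3 higher without the replicate block), with HMG1, for HMG-CoA reductase, at 0.99 ± 0.12. Of 16 purine genes 6 were higher and 3 lower (56.2% called), with IMD4 at 1.26 ± 0.11. Of 34 proteasome genes 17 were higher and 0 lower, but 2 were higher without the replicate block. Of 10 histone genes 3 were higher and 2 lower, and the list's median was 0.54 and 0.35 in number pairs 1 and 2 but -0.22 and -0.03 in pairs 3 and 4. Of 17 anaerobic and hypoxic genes 7 were lower, among them the cell wall mannoprotein gene DAN4 (-1.21 ± 0.13), and 3 higher (58.8% called). These 3, named after their values were seen, encode the hypoxic repressors Rox1 (0.86 ± 0.12) and Mot3 (0.71 ± 0.12) and the translation factor Anb1 (0.61 ± 0.14). MOT3 and ANB1 were not called without the replicate block (adjusted p = 0.0577 and 0.0725).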
